A study of Homo sapiens with 6 samples.

Results

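The metallothioneins and the genes of the zinc response were followed in HT-29 cells, a human colorectal adenocarcinoma line, after knockdown (KD) of HOXA-AS3 or HOXB-AS3. The 8 genes were taken by name from the 27434 rows of the deposited tables, and are the metallothionein genes MT1E, MT1F, MT1G, MT1M, MT1X and MT2A, the transcription factor gene MTF1 and the zinc exporter gene SLC30A1. HOXA-AS3 and HOXB-AS3 are long non-coding RNAs made from the HOXA and HOXB gene clusters. Cells were transfected with a non-targeting siRNA pool (siNT), an siRNA pool against HOXA-AS3 (siHOXA-AS3) or one against HOXB-AS3 (siHOXB-AS3), at 10 nM per the labels, and were harvested after 48 hours. All 3 groups therefore carried a transfected siRNA, none was left untransfected, and each was 1 line in culture with 2 RNA-seq libraries of polyA RNA. The labels do not say whether the libraries of a group came from separate cultures, so p-values measure the spread between these libraries, which may be technical.

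Metallothioneins are small proteins rich in cysteine that bind zinc and copper, and also cadmium when it is present, through the sulphur atoms of those residues. The zinc finger protein MTF1 senses free zinc, binds metal response elements (MREs) in the promoters of metallothionein genes and raises their transcription. SLC30A1, also called ZnT1, sits in the plasma membrane, moves zinc out of the cell and is another target of MTF1, so its transcript and those of the metallothioneins are commonly read as a report of the zinc that a cell can use. Intestinal epithelium expresses metallothioneins at a high level and adjusts them to the supply of dietary zinc.

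Promoters of 250 bases before to 50 after the gene start, from RefSeq on GRCh38.p14, were found for 4 of the 8 genes, MT2A, MT1X, SLC30A1 and MTF1. Those of MT2A, MT1X and the exporter are shown because they carry the MRE core, together with that of MT1H, a metallothionein gene of the same chromosome 16 cluster that these cells hardly expressed. Each runs 5′ to 3′ on the strand of its gene, and capitals mark the MRE core, searched on both strands as TGCACNC or TGCGCNC. No match overlapped another.
MT2A, chr16:56608334-56608633, plus strand: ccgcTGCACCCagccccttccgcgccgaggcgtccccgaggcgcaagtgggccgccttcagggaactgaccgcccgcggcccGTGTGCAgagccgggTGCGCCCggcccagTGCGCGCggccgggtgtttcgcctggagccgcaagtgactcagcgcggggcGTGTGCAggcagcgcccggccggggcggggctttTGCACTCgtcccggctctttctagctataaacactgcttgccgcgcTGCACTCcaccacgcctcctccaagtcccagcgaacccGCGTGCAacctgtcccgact
MT1X, chr16:56682220-56682519, plus strand: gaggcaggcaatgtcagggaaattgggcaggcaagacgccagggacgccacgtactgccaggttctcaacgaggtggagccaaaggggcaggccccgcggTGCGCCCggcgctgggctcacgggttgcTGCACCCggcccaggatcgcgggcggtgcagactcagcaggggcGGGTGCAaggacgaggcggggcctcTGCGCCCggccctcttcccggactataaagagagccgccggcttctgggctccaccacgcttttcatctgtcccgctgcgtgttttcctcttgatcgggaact
SLC30A1, chr1:211579112-211579411, minus strand: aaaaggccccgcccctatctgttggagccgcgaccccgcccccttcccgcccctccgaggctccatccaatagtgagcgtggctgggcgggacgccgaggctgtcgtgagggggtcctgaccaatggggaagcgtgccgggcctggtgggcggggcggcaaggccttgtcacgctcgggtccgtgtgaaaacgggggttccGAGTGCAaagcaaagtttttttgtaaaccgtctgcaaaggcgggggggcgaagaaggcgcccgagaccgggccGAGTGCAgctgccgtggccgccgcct
MT1H, chr16:56669564-56669863, plus strand: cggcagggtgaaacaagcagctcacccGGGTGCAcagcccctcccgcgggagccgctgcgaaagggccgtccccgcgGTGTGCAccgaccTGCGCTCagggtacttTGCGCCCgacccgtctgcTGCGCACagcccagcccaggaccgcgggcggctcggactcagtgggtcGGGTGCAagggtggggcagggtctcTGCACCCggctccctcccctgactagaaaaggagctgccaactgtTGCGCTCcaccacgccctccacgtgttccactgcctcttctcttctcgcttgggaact

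The MT2A promoter held 8 matches to the MRE core, the MT1X promoter 4 and the SLC30A1 promoter 2, and the MTF1 promoter held none in this window. Of 35116 RefSeq promoters of the same length, 29.6% held at least 1 match, 8.60% at least 2, 0.601% at least 4 and 0.0199% at least 8. The MT1H promoter also held 8, and MT1H had 15 expected counts over all 6 libraries. MT2A and MT1X each held 1 TATAAA, beginning 29 and 30 bases before the gene start, a motif found in 11.5% of the promoters. SLC30A1, MTF1 and MT1H held no TATAAA in the window. The metallothionein genes MT1B and MT4 had 2 and 0 expected counts over all libraries. Their promoters, not shown, each held 3 MRE matches and 1 TATAAA, beginning 30 and 29 bases before the gene start. A match to these letters is a description of the sequence, and binding was not measured.

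Library depth and the state of the knockdowns set the limits of what follows. Total expected counts were 15998518 to 26263938 per library. HOXA-AS3 had 38 and 18 expected counts in siNT, 12 and 12 in siHOXA-AS3 and 30 and 22 in siHOXB-AS3, a log2 fold change of -1.09 ± 0.40 (SE) in HOXA-AS3 KD (adjusted p = 0.711, edgeR). HOXB-AS3 had 303 and 213 in siNT, 263 and 208 in siHOXA-AS3 and 67 and 76 in siHOXB-AS3, a log2 fold change of -1.96 ± 0.25 in HOXB-AS3 KD (adjusted p = 0.0678, edgeR). Each target was thus lowest in its own KD, and neither passed the adjusted threshold of 0.05 against siNT. Against siHOXA-AS3, HOXB-AS3 passed in siHOXB-AS3 (-1.88 ± 0.25, adjusted p = 0.0292, edgeR). The siHOXA-AS3 libraries stood apart from each other. Replicates differed on the log2 scale with an SD over genes of 0.73 in siHOXA-AS3, 0.42 in siNT and 0.37 in siHOXB-AS3. In siHOXA-AS3 replicate 2 minus replicate 1 fell with GC content (Pearson r of -0.77 and Spearman rho of -0.81 across genes, which do not count as replicates). Of 10 markers of colon epithelium, 9 had a mean FPKM of at least 1 (CDX2, an intestinal transcription factor gene, had 0.192), and their summed FPKM was 4007 to 6041 in siHOXA-AS3, 4433 to 4466 in siHOXB-AS3 and 4732 to 5109 in siNT. Markers of fibroblasts (COL1A1, COL1A2, DCN and LUM) and endothelium (PECAM1, VWF and CDH5) summed to at most 0.15 and 0.07 FPKM in any library, with COL1A2 and DCN at 0 throughout, and 1 of 4 immune markers passed a mean FPKM of 1 (CD68, 11.5).

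MT2A and MT1E carried most of the family's transcripts. Levels are compared between genes as FPKM, which is scaled for gene length and library size. In siNT, MT2A had 985.4 and 1154 FPKM (1070 ± 119 (SD, n = 2)), which put it at rank 114 of the 27434 rows, and MT1E had 844.3 and 1120 (982 ± 195, rank 125). The ranges of these genes overlapped, so their order was not resolved. MT1X followed with 241.9 and 307.1 FPKM (274.5 ± 46.1, rank 298). All 3 encode widely expressed metallothionein isoforms.

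The remaining genes were far lower. SLC30A1 had 21.0 and 18.4 FPKM in siNT (19.7 ± 1.87), above MT1F with 15.6 and 12.9 (14.3 ± 1.90). The ranges of SLC30A1 and MT1F did not overlap in siNT, but in siHOXA-AS3, with 20.2 and 25.5 for SLC30A1 and 21.5 and 11.0 for MT1F, they did. MTF1 had 4.62 and 4.80 FPKM (4.71 ± 0.13) and lay inside the range of MT1G, 3.90 and 5.47 (4.69 ± 1.11). MT1M was listed at 0.12 FPKM in siNT replicate 1 and 0.13 in siHOXB-AS3 replicate 1 and at 0 in the other 4 libraries, 2 expected counts in all, under a floor of 3 counts, so no difference in MT1M was detectable at this depth and it was not tested. Of 11 other metallothionein genes and pseudogenes, 10 had a row, and MT1CP had none. MT1JP, a transcribed pseudogene, was tested at a mean of 1.66 FPKM, and MT1H with 15 counts, MT1A with 12, MT1DP with 9, MT1B with 2, MT1L with 1, and MT3, MT4, MT1IP and MT1HL1 with 0 were too low.

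**Figure D1:**
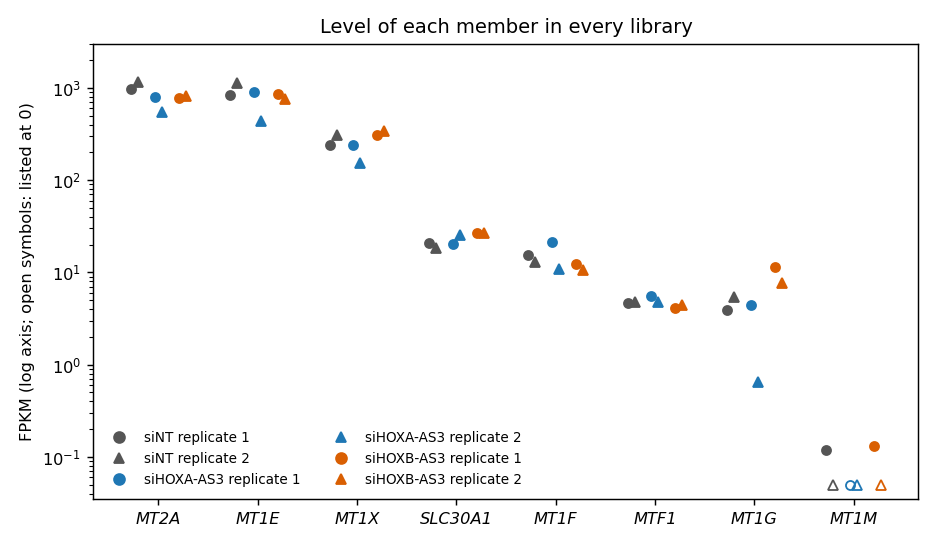
FPKM (log axis) of the 8 genes in each of the 6 libraries, with circles for replicate 1, triangles for replicate 2, colours for the siRNA and open symbols near the bottom for values listed at 0. MT2A, MT1E and MT1X lie at 152.5 FPKM or more in every library, SLC30A1 and MT1F between 10.5 and 26.9, and MT1M is at 0 in 4 libraries.

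Sequence that the metallothionein genes share with other genes limits how well reads are assigned to each of them. Of the 50-base words in their annotated transcripts, 18.3% of those of MT1X, 16.5% of MT1G, 9.87% of MT1M, 7.10% of MT1E, 3.02% of MT2A and 1.22% of MT1F were also found in a transcript of another gene. RSEM divides reads that match several genes, and the expected counts of MT1E, MT1X and MT2A were whole numbers, within 0.005, in 0 of 6 libraries, those of MT1G in 2, MT1F in 5 and MT1M in 6. The words came from all annotated transcripts of a gene, 1867 words for MT1X, whose counted length was 404 bases. The percentages are therefore not the share of reads that could be split. Values of the metallothionein genes are uncertain by that share, which was not measured. SLC30A1 was whole in 6 libraries and MTF1, which is not a metallothionein gene, in 0, so split counts were not particular to the family.

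MT2A, MT1E and MT1X were each lowest in siHOXA-AS3 replicate 2, and in HOXA-AS3 KD against siNT none of the 7 genes tested passed the adjusted threshold. The share of all 13034 genes that passed it was 0%. By edgeR at an unadjusted p under 0.05, MT2A was the 1 of the 7 that was lower and none was higher, beside 3.41% and 2.75% of all genes, and by DESeq2 none of the 7 passed the adjusted threshold beside 0.397% of all genes. The siHOXA-AS3 libraries lay below both siNT libraries for 2 of 7 (MT2A and MT1X, 16.1% of all genes) and above both for none (12.5%). The median log2 fold change of the 7 was -0.52, and that of all genes was 0.01. In bulk RNA, fewer cells of a type and less RNA per cell cannot be told apart.

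MT2A encodes the most widely expressed human metallothionein. It had 289 and 345 CPM (counts scaled to library size with edgeR's TMM factors) in siNT and 233 and 158 in siHOXA-AS3, so both KD libraries lay below both controls. The log2 fold change was -0.70 ± 0.22 (SE), a fold of 0.616 (unadjusted p = 0.0148, adjusted p = 0.641, edgeR). The siHOXA-AS3 libraries stood at -0.44 and -1.0 from the siNT mean on the log2 CPM scale. With a loess trend on GC content removed in each library these became -0.78 and -0.53, and the change of -0.65 passed the adjusted threshold (adjusted p = 0.0135), as did 5.01% of all genes in that fit. With only siHOXA-AS3 replicate 1 kept, the change was -0.44 (adjusted p = 0.0130), and with only replicate 2 kept it was -1.0 (adjusted p = 1.09e-05), in fits where 17.9% and 30.3% of all genes passed.

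In MT1E and MT1X replicate 1 of the KD lay close to the controls. MT1E had 320 and 431 CPM in siNT and 344 and 164 in siHOXA-AS3. Replicate 1 of the KD lay between the controls and replicate 2 far below them, and the log2 fold change of -0.56 ± 0.34 had an adjusted p of 0.924 (edgeR). Leaving out siHOXA-AS3 replicate 2 gave -0.12, and leaving out replicate 1 gave -1.20 (adjusted p = 2.69e-05). With the GC trend removed the siHOXA-AS3 libraries stood at -0.38 and -0.79 from the siNT mean, below both controls at -0.13 and 0.13, and the change of -0.58 had an adjusted p of 0.0560. MT1X had 67.3 and 87.4 CPM in siNT and 66.0 and 41.5 in siHOXA-AS3, where replicate 1 lay just under the lower control. Its log2 fold change was -0.52 ± 0.26 (adjusted p = 0.872, edgeR), -0.22 without replicate 2 and -0.89 without replicate 1 (adjusted p = 2.85e-04).

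MT1G and MT1F, the low members of the family, were measured with fewer reads. MT1G had 28.8 and 25 expected counts in siNT and 28.9 and 3.00 in siHOXA-AS3, so its log2 fold change of -0.80 ± 0.70 (adjusted p = 0.976, edgeR) rested on replicate 2. Without that library it was -0.06, and without replicate 1 it was -2.84 (adjusted p = 0.00497). MT1F had 4.91 and 4.14 CPM in siNT and 6.76 and 3.45 in siHOXA-AS3, on both sides of the controls, with a log2 fold change of 0.18 ± 0.36 that turned to -0.40 without replicate 1.

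The exporter gene and MTF1 overlapped the controls in siHOXA-AS3. SLC30A1 had 39.2 and 34.6 CPM in siNT and 37.9 and 48.0 in siHOXA-AS3, highest in the replicate where the metallothioneins were lowest, and its log2 fold change was 0.22 ± 0.20 (adjusted p = 0.980, edgeR). With the GC trend removed the siHOXA-AS3 values were 0.36 and -0.12 from the siNT mean, in the opposite order. SLC30A1 transcripts have a GC content of 38.0%, and those of MT2A and MT1E 63.0% and 59.5%. MTF1 had 35.7 and 37.3 CPM in siNT and 42.8 and 37.2 in siHOXA-AS3, with a log2 fold change of 0.13 ± 0.18 (adjusted p = 0.997). The part of GC content in the level of the siHOXA-AS3 libraries was measured only by removing this trend.

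**Figure D2:**
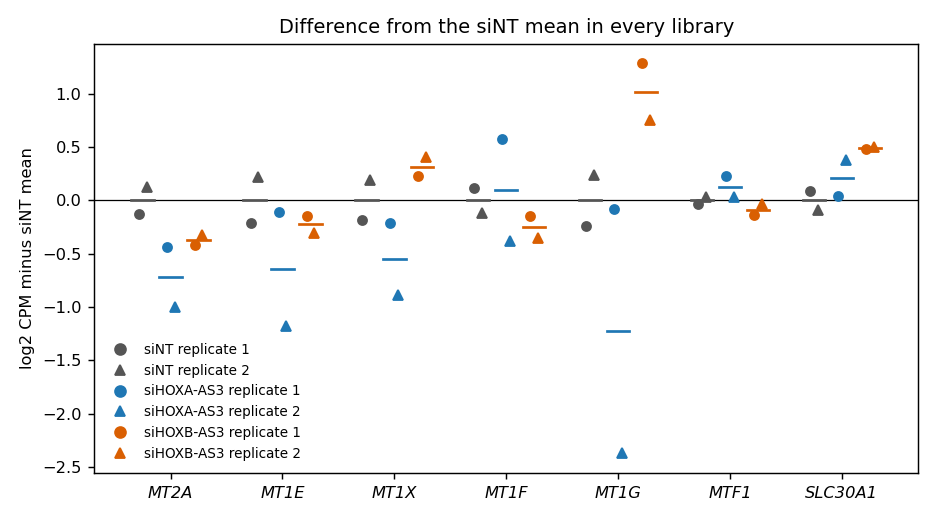
log2 CPM of the 7 genes tested in each library minus the mean of the siNT libraries, with horizontal bars for group means. siHOXA-AS3 replicate 2 is the lowest library for MT2A, MT1E, MT1X, MT1F and MT1G, and both siHOXB-AS3 libraries lie above both siNT libraries for MT1X, MT1G and SLC30A1.

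In HOXB-AS3 KD against the same siNT libraries, none of the 7 genes passed the adjusted threshold, which 0.0614% of all genes passed. By edgeR 1 of 7 was higher at an unadjusted p under 0.05 (SLC30A1, beside 4.42% of all genes) and none lower (7.75%), and DESeq2 passed none at the adjusted threshold beside 2.84% of all genes. Both KD libraries lay above both controls for 3 of 7 (SLC30A1, MT1G and MT1X) and below both for 3 of 7 (MT2A, MT1F and MTF1, the last by 35.61 against 35.69 CPM), where 30.9% of all genes did so in each direction, and the median log2 fold change was -0.09 beside -0.01 for all genes. Of the 10 markers of colon epithelium, 2 were lower in HOXB-AS3 KD at an unadjusted p under 0.05 and none higher, with a median of -0.31, and the part of these markers in the values of the 7 genes was not tested.

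SLC30A1 was the gene of the 7 with the smallest p in this comparison. It had 51.5 and 52.3 CPM in siHOXB-AS3 against 39.2 and 34.6 in siNT, so the KD libraries were close to each other and above both controls. The log2 fold change was 0.49 ± 0.20, a fold of 1.41 (unadjusted p = 0.0416, adjusted p = 0.377, edgeR). Fitted on the 4 libraries of these groups alone the same change of 0.49 had an adjusted p of 0.00523, in a fit where 23.3% of all genes passed. MT2A, MT1G and SLC30A1 also passed when either siHOXA-AS3 library was left out (22.7% of all genes without replicate 1, 22.6% without replicate 2), and none of the 7 did with the GC trend removed, where 15.1% of all genes passed. Over all alternatives the SLC30A1 log2 fold change ran from 0.41 to 0.58 and its adjusted p from 0.00425 to 1.00.

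MT1G and MT1X were the metallothioneins that were higher in siHOXB-AS3. Their transcripts share 50-base words with each other, and the part of shared reads in these values was not measured. MT1G had 80.0 and 48.0 expected counts against 28.8 and 25 in siNT, or 3.29 and 2.24 CPM against 1.09 and 1.55, a log2 fold change of 1.09 ± 0.64 (adjusted p = 0.566, edgeR). MT1X had 90.0 and 101 CPM against 67.3 and 87.4, just clear of the higher control, and a log2 fold change of 0.31 ± 0.26 (adjusted p = 0.708). On the groups compared alone, MT1G passed the adjusted threshold (1.11, adjusted p = 0.0183), and MT1X passed it in none of the alternatives of this comparison (lowest adjusted p 0.0582).

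MT2A lay below both controls in the same libraries. It had 236 and 253 CPM against 289 and 345 in siNT, with a log2 fold change of -0.37 ± 0.22 (adjusted p = 0.559, edgeR), and passed on the groups compared alone (-0.38, adjusted p = 0.00774). MT1E, with 336 and 300 CPM, overlapped the controls, and its log2 fold change was -0.24 ± 0.34. MT1F had 4.07 and 3.51 CPM against 4.91 and 4.14, and -0.26 ± 0.36. MTF1 had 33.2 and 35.6 CPM against 35.7 and 37.3, a log2 fold change of -0.09 ± 0.18 (adjusted p = 0.902), so the higher SLC30A1 level stood beside an MTF1 level just under the controls.

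**Figure D3:**
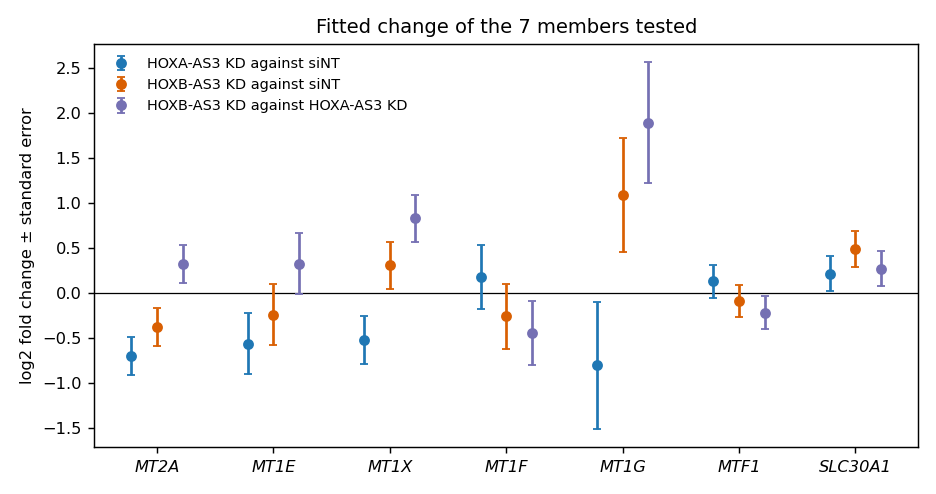
Log2 fold change of the 7 genes tested with its standard error, from edgeR's model of all 6 libraries, in each KD against siNT and in HOXB-AS3 KD against HOXA-AS3 KD. MT1X and MT1G lie below 0 in HOXA-AS3 KD (-0.52 and -0.80) and above 0 in HOXB-AS3 KD (0.31 and 1.09), and MT2A lies below 0 in both (-0.70 and -0.37). None of the values passed the adjusted threshold.

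The KDs share the siNT libraries, so the difference between them was tested directly. MT1X was 0.83 ± 0.26 higher in siHOXB-AS3 than in siHOXA-AS3 on the log2 scale (unadjusted p = 0.0168, adjusted p = 0.167, edgeR), and MT1G was 1.90 ± 0.67 higher (unadjusted p = 0.0260, adjusted p = 0.203). Without siHOXA-AS3 replicate 1 these differences were 1.21 and 3.94, and without replicate 2 they were 0.53 and 1.17. None of the 7 genes passed the adjusted threshold, which 1.57% of all genes passed, and these 2 of 7 were higher at an unadjusted p under 0.05 (7.90% of all genes) and none lower (10.5%). DESeq2 passed MT1X alone (0.83, adjusted p = 0.0437), with 6.26% of all genes. Both siHOXB-AS3 libraries lay above both siHOXA-AS3 libraries for MT1X, MT1G, MT2A and SLC30A1 (4 of 7, 22.8% of all genes), below both for MTF1 (22.5%), and overlapped for MT1E and MT1F. With the GC trend removed, MT1G (1.88, adjusted p = 0.0307), MT1X (0.79, adjusted p = 0.0134) and MT2A (0.37, adjusted p = 0.0325) passed, beside 27.4% of all genes. On these groups alone none of the 7 passed (0.0156% of all genes). Without siHOXA-AS3 replicate 1, MT1E, MT1G, MT1X and MT2A passed (37.8% of all genes), and without replicate 2, MT1F, MT1G, MT1X and SLC30A1 (36% of all genes). The median over the 7 was 0.32, against -0.01 for all genes.

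The family as a whole was lower in siHOXA-AS3 replicate 2 than in the other libraries. Summed over the 6 metallothionein genes, the level was 682 and 870 CPM in siNT, 651 and 367 in siHOXA-AS3 and 670 and 660 in siHOXB-AS3. The log2 difference from siNT was -0.61 for HOXA-AS3 KD and -0.22 for HOXB-AS3 KD, with an SD between replicates of 0.37 over the 3 groups, to which the siHOXA-AS3 pair gave most. Both libraries of each KD lay below both controls. Leaving out 1 library moved the HOXA-AS3 KD difference between -1.08 (without siHOXA-AS3 replicate 1) and -0.25 (without replicate 2), and the HOXB-AS3 KD difference between -0.39 (without siNT replicate 1) and -0.04 (without siNT replicate 2). As a share of all TPM, the 6 genes took 0.306% and 0.367% in siNT, 0.277% and 0.173% in siHOXA-AS3 and 0.273% and 0.270% in siHOXB-AS3.

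MT1X took a larger share of the family's level in the siHOXB-AS3 libraries than in any other. It took 11.6% and 11.8% of the summed metallothionein FPKM in siNT, 12.1% and 13.2% in siHOXA-AS3 and 15.8% and 17.8% in siHOXB-AS3, and MT2A and MT1E took 39.5% to 47.8% and 38.0% to 46.2% over all libraries. The ratio of MT1X to MT2A FPKM, chosen after these values were seen, was 0.246 and 0.266 in siNT, 0.299 and 0.277 in siHOXA-AS3 and 0.401 and 0.422 in siHOXB-AS3. Both siHOXB-AS3 libraries were thus above the other 4, by 0.69 on the log2 scale against siNT and 0.51 against siHOXA-AS3, with an SD between replicates of 0.07. The exact permutation test (two-sided) gave p = 0.333, the smallest that 2 libraries against 2 allow. A ratio shows unequal change of the genes and not which of them moved. The ratio of MT1X to MT1E was also highest in siHOXB-AS3, at 0.365 and 0.456 against 0.287 and 0.274 in siNT and 0.262 and 0.349 in siHOXA-AS3, and the ratio of MT2A to MT1E overlapped between siNT and each KD, from 0.875 to 1.26 over all libraries.

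**Figure D4:**
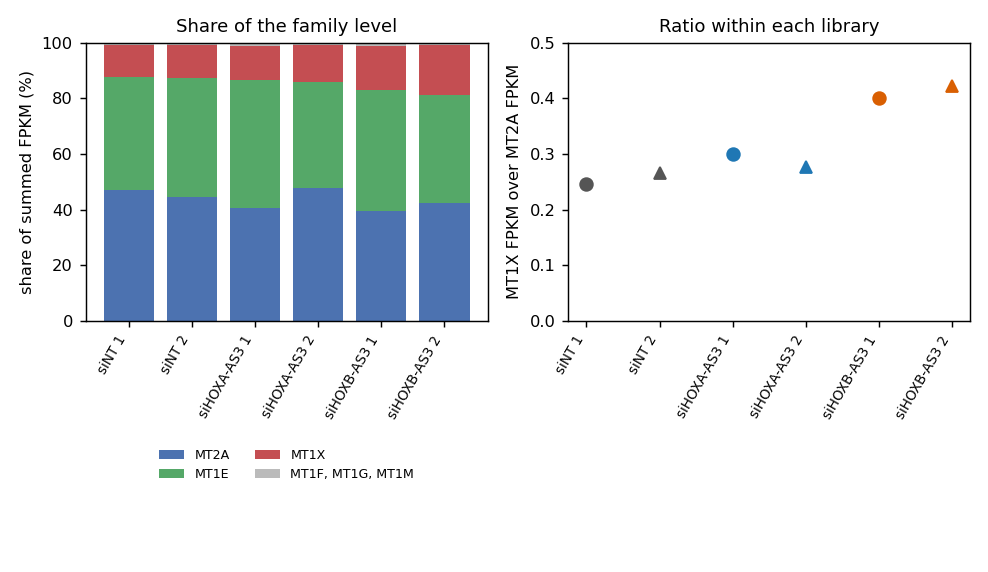
Left, share of the summed metallothionein FPKM (%) taken by each gene in each library. Right, MT1X FPKM over MT2A FPKM in each library, on an axis from 0. The siHOXB-AS3 libraries stand at 0.401 and 0.422, above all other libraries at 0.246 to 0.299, and the grey share of MT1F, MT1G and MT1M is barely visible.

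Other carriers of zinc were listed beside SLC30A1, and none of them passed the adjusted threshold in any comparison. Of 9 further exporter genes of the SLC30 family 5 were tested, with a median log2 fold change of 0.28 in HOXA-AS3 KD and -0.07 in HOXB-AS3 KD, and none reached an unadjusted p under 0.05 against siNT. The most expressed was SLC30A5, whose protein loads zinc into the secretory pathway, at a mean of 23.6 FPKM and a log2 fold change of 0.28 in HOXA-AS3 KD and -0.07 in HOXB-AS3 KD. Of 14 importer genes of the SLC39 family 11 were tested, with medians of 0.23 and -0.22, and again none reached that p against siNT. SLC39A4, the importer that takes up dietary zinc in the intestine, was the most expressed at 76.5 FPKM, with log2 fold changes of 0.44 ± 0.21 and 0.35 ± 0.21 (adjusted p = 0.862 and 0.575, edgeR). Both libraries of each KD lay above both controls, as they did for 12.5% of all genes in HOXA-AS3 KD and 30.9% in HOXB-AS3 KD.

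Copper handling, the other metal that metallothioneins bind, was covered by 11 genes, all tested and none past the adjusted threshold. In HOXB-AS3 KD 2 of 11 were higher at an unadjusted p under 0.05 (4.42% of all genes) and none lower (7.75%), with a median of -0.11, and in HOXA-AS3 KD none was higher or lower. COX17, which carries copper to cytochrome oxidase and was the most expressed at 954 FPKM, had a log2 fold change of 0.61 ± 0.17 in HOXB-AS3 KD (adjusted p = 0.224, edgeR), and ATOX1, which carries copper to the secretory pathway, had 0.56 ± 0.21 (adjusted p = 0.348).

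Metallothionein genes also respond to oxidants, heat and glucocorticoids, and lists for each were read. Of 8 targets of NRF2, the oxidant-response factor, 3 were higher in HOXA-AS3 KD at an unadjusted p under 0.05 (median 0.41, beside 2.75% of all genes), and 1 was higher and 1 lower in HOXB-AS3 KD (median 0.03, beside 4.42% and 7.75%), with none past the adjusted threshold against siNT. SLC7A11, the cystine transporter gene, had 1.24 ± 0.31 (adjusted p = 0.529, edgeR) in HOXA-AS3 KD, and GCLC, which makes the glutathione precursor, had 0.56 ± 0.22 (adjusted p = 0.760). Both were highest in siHOXA-AS3 replicate 2, at 0.74 and 1.62 from the siNT mean in replicates 1 and 2 for SLC7A11 (GC content 35.4%) and 0.22 and 0.84 for GCLC (44.4%), and the part of GC content in these values was not tested. HMOX1, which degrades heme, had 0.86 ± 0.25 in HOXB-AS3 KD (adjusted p = 0.232). NQO1, a quinone reductase gene and the highest of the list at 562 FPKM, had 0.57 ± 0.18 in HOXA-AS3 KD and -0.56 ± 0.18 in HOXB-AS3 KD, and its difference between the KDs of -1.13 ± 0.18 passed (adjusted p = 0.0410), the 1 gene of the list to do so.

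None of 8 heat shock genes reached an unadjusted p under 0.05 against siNT. HSPB1, a small chaperone gene and the highest at 115 FPKM, had log2 fold changes of 0.08 and -0.45. Of 8 genes in the glucocorticoid list 6 were tested. The other genes, ZBTB16 and the glucocorticoid receptor gene NR3C1, had 0 expected counts in every library. Of the 6 tested, 2 were higher and 1 lower in HOXA-AS3 KD at an unadjusted p under 0.05 (2.75% and 3.41% of all genes). In HOXB-AS3 KD 1 was higher at that p (4.42%), and none passed the adjusted threshold. SGK1, a kinase gene, had 0.64 ± 0.22 in HOXA-AS3 KD, and TSC22D3, a classical glucocorticoid target and the highest of the list at 40.4 FPKM, had -0.43 ± 0.17 in the same comparison. PER1, a clock gene, had 0.85 ± 0.23 in HOXB-AS3 KD (adjusted p = 0.216, edgeR).

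The neighbours of the metallothionein cluster had log2 fold changes of both signs in each KD. Within 250 kb of the cluster on chromosome 16, 6 genes that are not metallothioneins were tested, and none passed the adjusted threshold in any comparison. Their log2 fold changes ran from -0.31 (NUP93, a nuclear pore gene) to 0.31 (HERPUD1, a gene of the unfolded protein response) in HOXA-AS3 KD, and from -0.93 (BBS2, a gene of the ciliary BBSome) to 0.35 (NUP93) in HOXB-AS3 KD. For BBS2 the siHOXB-AS3 libraries lay under the controls (-0.93 ± 0.18, unadjusted p = 0.00136, adjusted p = 0.114, edgeR), as they did for 30.9% of all genes. Between the KDs, 3 of these 6 neighbours reached an unadjusted p under 0.05 by edgeR. NUP93 was higher in siHOXB-AS3 than in siHOXA-AS3 (0.66 on the log2 scale), and BBS2 (-0.86) and HERPUD1 (-0.64) were lower. Of all genes, 7.90% were higher and 10.5% lower at that p. NUDT21 and OGFOD1, both at a mean FPKM of at least 1, had -0.18 and -0.06 in HOXA-AS3 KD and -0.06 and 0.28 in HOXB-AS3 KD. MT1JP, inside the cluster, had -0.76 ± 0.53 and -0.84 ± 0.52.

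The profile of the 5 metallothioneins tested, taken as the mean of their log2 CPM relative to the siNT mean, was -0.13 and 0.13 in siNT, -0.05 and -1.16 in siHOXA-AS3 and 0.16 and 0.03 in siHOXB-AS3. It lay furthest from 0 in siHOXA-AS3 replicate 2. The mean gives each gene equal weight, and MT1G, the gene with the fewest reads, had the largest deviation there (-2.37). MT1G also deviated most in siHOXB-AS3 (1.28 and 0.75), where MT1X lay above its siNT mean and MT1E, MT1F and MT2A below theirs. The profile was above 0 in siHOXB-AS3, although the summed CPM lay below both controls. A profile without MT1G was not computed. Of 10544 other genes, the 5 most like this profile over the 6 libraries were RFX2 (Pearson r = 0.998), TREX1, HDLBP, GTF2F1 and DNAJB12, and the 5 least like it were SH3BGRL (r = -0.996), RESF1, LRATD2, SELENOI and TXLNG. In siHOXA-AS3 replicate 2 the first 5 lay from -1.22 (TREX1) to -0.27 (HDLBP) and the last 5 from 0.42 (TXLNG) to 1.08 (RESF1) on the log2 scale. GC content was 53.9% to 63.0% in the first and 37.4% to 49.3% in the last, and 716 of the 10544 genes (6.79%) had an r of at least 0.9. The points share a library and its base composition. MTF1 and SLC30A1 had r of -0.15 and -0.21 with the profile.

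**Figure D5:**
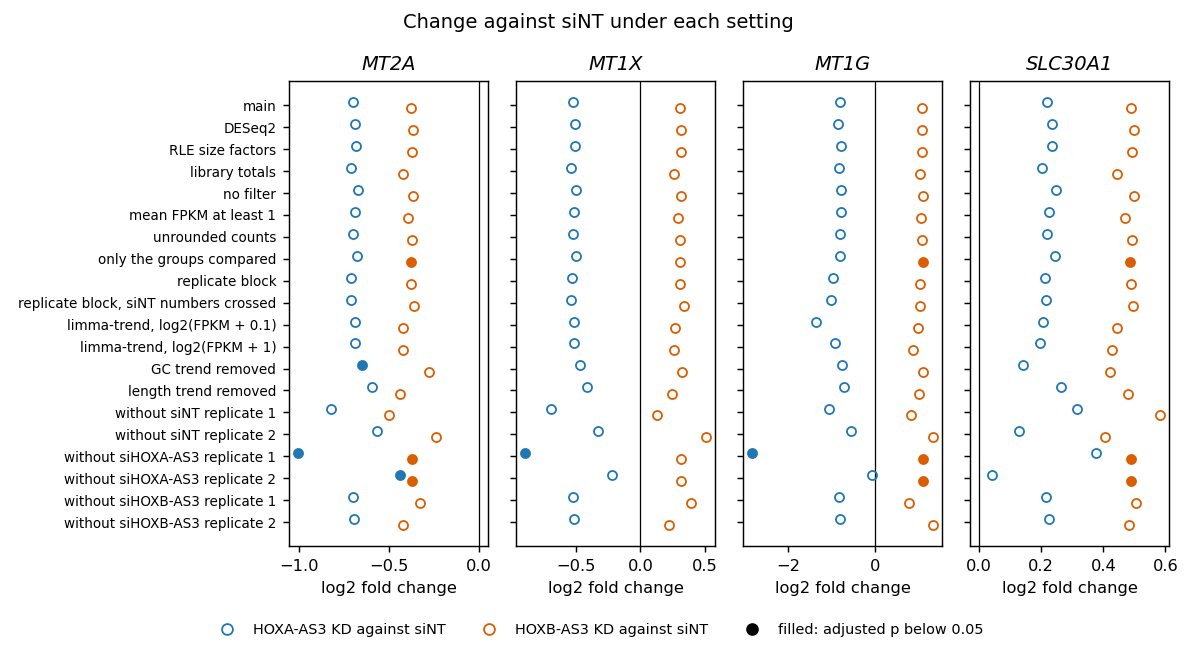
Log2 fold change of MT2A, MT1X, MT1G and SLC30A1 against siNT in HOXA-AS3 KD and HOXB-AS3 KD under each setting, filled where the adjusted p was below 0.05. Each gene keeps 1 side of 0 in each comparison, and the filled points lie in fits of the groups compared alone, with the GC trend removed, or without 1 of the siHOXA-AS3 libraries.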

How the data were processed

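RNA-seq of polyA RNA from 6 HT-29 libraries was analysed, 2 per siRNA. Per the labels, RNA was extracted with an RNeasy kit and libraries were made with the Lexogen SENSE mRNA kit. The study's methods give another siRNA dose and extraction reagent, and the label values are used here. The authors ran RSEM on RefSeq genes, and the labels name hg19. The aligner and the strand setting are, like the versions, not given in the sources used here. The authors deposited RSEM expected counts (estimated fragments per gene, not normalized), TPM and FPKM. Of 27434 rows, 627 join several genes (6.02% to 6.62% of the counts), and rows with no symbol held 0.214% to 0.263%.

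Expected counts were rounded, filtered with filterByExpr (minimum count 10), scaled by TMM and tested in R 4.3.3 with edgeR 4.0.16 (robust quasi-likelihood fit of all libraries). P-values were adjusted by Benjamini and Hochberg over 13034 genes at 0.05. Log2 fold changes are given ± SE, derived from the F statistic. Counts of the 2 most alike libraries differed with a chi-square of 6.94 per degree of freedom, beyond sampling noise. On counts simulated for 13034 genes with 200 changed 4-fold, edgeR recovered 94.0% for HOXA-AS3 KD (13 false calls) and 93.0% for HOXB-AS3 KD (15). The simulated libraries shared a mean level per gene, without the GC trend between the siHOXA-AS3 libraries. In edgeR's fit of all libraries each change of the 7 genes was smaller than 4-fold. These rates therefore do not say how often changes of that size would be found.

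The 8 genes, the lists and the alternatives were chosen with earlier results of these data known. Besides the 8, genes were named where the mean FPKM was at least 1 and the unadjusted p below 0.05 in either KD against siNT (at most 4 per list), or as the highest of a list, as neighbours within 250 kb, as the 5 most and 5 least like the metallothionein profile, or as the siRNA targets. The values of 1 neighbour are not reported here. Alternatives were DESeq2 1.42.0, RLE factors, library totals, other filters, unrounded counts, only the groups compared, a replicate block, limma-trend (3.58.1) on log2(FPKM + 0.1) and log2(FPKM + 1), a loess trend on GC content (a value for 98.1% of genes) or length removed, and each library left out.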

Additional observations from a re-analysis of the deposited data

Results flagged for a closer look

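MT1X, a metallothionein gene, was noted because both libraries of one KD lay below both siNT libraries and both libraries of the other lay above them. It had 66.0 and 41.5 CPM in siHOXA-AS3, 67.3 and 87.4 in siNT and 90.0 and 101 in siHOXB-AS3. The KDs differed by 0.83 on the log2 scale, with an adjusted p of 0.167 by edgeR and 0.0437 by DESeq2. The gap between siHOXA-AS3 replicate 1 and the lower control was 66.0 against 67.3 CPM. No group had 4 libraries, so no library was tested as an outlier.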

How the results depend on the processing

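Of 399 recomputed log2 fold changes of the 7 genes, 368 kept their direction and side of the threshold, 28 kept their direction and newly passed it, and 3 changed sign. None of the 7 had passed in the first place, so no call could be lost. Over the libraries left out, MT1F ran from -0.40 (without siHOXA-AS3 replicate 1) to 0.58 in HOXA-AS3 KD and from -0.84 to 0.14 (without replicate 1) between the KDs, and MT1E from -0.12 (without replicate 2) to 0.96 between the KDs. Of the 28, 19 came from leaving out a library. Called genes numbered 0 in HOXA-AS3 KD, 8 in HOXB-AS3 KD and 204 between the KDs. In that order they were 49, 332 and 773 with DESeq2, 24, 265 and 706 with no filter, and 653, 1973 and 3567 with the GC trend removed. With only the groups compared they were 2995 in HOXB-AS3 KD and 2 between the KDs. In HOXA-AS3 KD the length trend removed and limma-trend on log2(FPKM + 0.1) each gave 1, and between the KDs limma-trend gave 93 with a pseudocount of 0.1 and 76 with 1. Leaving out each library gave 0 to 4031, 0 to 3035 and 0 to 5027, with the highest counts without siHOXA-AS3 replicate 1 or 2, where the lone library is assumed to vary like the other groups. The median of the 7 genes then ran from -0.89 to -0.064 in HOXA-AS3 KD (without siHOXA-AS3 replicate 1 and 2), from -0.14 to -0.01 in HOXB-AS3 KD and from 0.066 to 0.63 between the KDs. The cause of these changes was not tested.

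The replicate numbers are shared by the groups without a stated pairing, and deviations of same-numbered libraries correlated across genes at -0.35 (siNT and siHOXA-AS3), -0.14 (siNT and siHOXB-AS3) and 0.15 (both KDs). With the replicate block, called genes were 0, 0 and 10, and no call among the 7 genes changed, with medians of -0.53, -0.09 and 0.33. With the siNT numbers crossed in the block, an alternative added after the data were seen, called genes were 14, 225 and 758, the last with 1 of the 7 genes among them. The depth left MT1M without a test, and MT1G rested on 3 to 80 expected counts per library.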
